A study of Mus musculus with 2 samples.

Results

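Sprr1a, Sprr2b and Sprr2k (small proline-rich proteins of the cornified envelope), Sfn (14-3-3 sigma), Perp (a tetraspan protein of desmosomes) and 4 members of the Ly6 family, Ly6d, Ly6h, Ly6a and Ly6c1, were followed through mouse cells on day 16 of reprogramming towards induced pluripotent stem cells. These 9 genes of 17408 in the table were chosen by measured values, because they led several groups of non-pluripotent cells in earlier results of these same cells, so their levels over cell states are given as a description with no test. The cells were unsorted mouse embryonic fibroblasts with the STEMCCA transgene, from which doxycycline turns on Oct4, Klf4, Sox2 and c-Myc, grown with that drug, LIF and ascorbic acid. Both libraries carried the same day and cell label and formed 1 group, with no uninduced or day 0 library among the files, and nothing in the labels says that they came from separate cultures. The study describes 2 independent STEMCCA mouse systems for its day 16 populations, and the labels do not say whether the 2 libraries came from one of them or from both. Replicate 1 held 3109 cells with a median of 15625 unique molecular identifiers (UMIs, single counted RNA molecules) per cell and replicate 2 held 3914 cells with a median of 14292. With 2 libraries of 1 group the smallest p an exact sign-flip permutation could give is 0.5, so spread is given as the 2 library values or their SD.

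In stratified skin, keratinocytes that leave the basal layer cross-link small proline-rich proteins, loricrin and involucrin into a rigid cornified envelope, while desmosomes hold the cells together. Sprr genes are also induced in other epithelia under stress, and Perp and Sfn are known targets of p53, with Perp also a target of p63. Ly6 proteins are small three-finger proteins, mostly anchored to the cell surface by a lipid. Ly6a (Sca-1) marks many fibroblasts and stem cells, Ly6c1 is known from endothelial and blood cells, Ly6d from epithelia and lymphoid progenitors, and Ly6h from brain.

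The annotation (GENCODE vM21, GRCm38, the same assembly as mm10) placed all 9 genes, all of them protein-coding. Sprr2b (chr3:92316620-92318085), Sprr2k (chr3:92432582-92433925) and Sprr1a (chr3:92483952-92485895) lay in that order on chromosome 3, with 114 kb between Sprr2b and Sprr2k and 50.0 kb between Sprr2k and Sprr1a. Ly6d (chr15:74762056-74763620), Ly6a (chr15:74994877-74998031), Ly6c1 (chr15:75044018-75048830) and Ly6h (chr15:75551268-75567255) lay on chromosome 15, with 46.0 kb between Ly6a and Ly6c1. Sfn (chr4:133600556-133602168) and Perp (chr10:18845020-18857073) lay apart from both families. Of windows of 90 bases within the last 500 bases of each gene's transcripts, 13.8% of those of Ly6c1 also occurred in transcripts of Ly6a or Ly6c2, and 0 of those of the other 8 genes occurred in another gene. Ly6c2 itself had 3 UMIs in replicate 1 and 0 in replicate 2.

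The promoters of the 3 Sprr genes are shown because these close relatives on 1 stretch of chromosome peaked in different cells. RefSeq windows matched 5 of the 9 genes (Sfn and Ly6c1 besides these). Each line is the 250 bases before the RefSeq start on the gene's own strand (GRCm38.p6). Capitals mark the TATA box (TATAAA), the core motif of AP-1 (TGANTCA, where N is any base) and the octamer bound by POU factors (ATTTGCAT), each searched on both strands, with no overlap between them. The motifs were picked after these sequences had been read.
Sprr1a, minus strand, chr3:92485882-92486131: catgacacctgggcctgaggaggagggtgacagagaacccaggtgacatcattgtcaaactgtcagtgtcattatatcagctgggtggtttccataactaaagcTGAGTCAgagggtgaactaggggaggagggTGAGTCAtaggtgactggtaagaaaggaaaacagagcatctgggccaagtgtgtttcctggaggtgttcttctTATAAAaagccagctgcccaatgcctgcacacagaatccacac
Sprr2b, plus strand, chr3:92316455-92316704: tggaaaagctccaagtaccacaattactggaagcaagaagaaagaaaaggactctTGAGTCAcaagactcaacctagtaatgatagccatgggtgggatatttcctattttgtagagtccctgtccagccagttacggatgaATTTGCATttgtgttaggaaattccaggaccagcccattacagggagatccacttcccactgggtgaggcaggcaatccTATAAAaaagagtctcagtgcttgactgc
Sprr2k, plus strand, chr3:92432332-92432581: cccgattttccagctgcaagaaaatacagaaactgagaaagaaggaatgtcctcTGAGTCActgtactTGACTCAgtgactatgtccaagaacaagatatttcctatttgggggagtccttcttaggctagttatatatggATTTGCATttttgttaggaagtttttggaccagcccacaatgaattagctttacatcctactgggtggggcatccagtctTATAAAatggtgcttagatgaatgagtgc

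All 3 windows held TATAAA, which 12.3% of 32536 distinct RefSeq windows of this length also held. TGANTCA stood 2 times before Sprr1a, 1 time before Sprr2b and 2 times before Sprr2k, against a match in 6.73% of all windows. ATTTGCAT stood before Sprr2b and Sprr2k, with its first base 108 and 109 bases before the start, and not in the window of Sprr1a, against 1.62% of all windows. Sprr2b and Sprr2k were identical at 64.8% of 253 aligned positions, Sprr1a and Sprr2b at 49.3% of 272. A match is a run of letters and was not tested as a binding site. GENCODE starts Sprr1a and Sprr2b inside the windows shown, upstream of their RefSeq starts, and starts Sprr2k at the RefSeq start.

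The cells were grouped into 16 clusters, and 12 clusters had at least 30 cells in each library. The 9 genes, the other listed envelope and Ly6 genes and genes of the X and Y chromosomes were not used for the grouping. The listed 14-3-3, desmosome, p53 and keratin genes described below were not left out. Cluster 7 was pluripotent-like, with 14 of 14 markers raised (147 and 391 cells), cluster 5 smooth muscle or myofibroblast-like with 8 of 8 (356 and 257), cluster 11 fibroblast-like with 10 of 13 (196 and 115), cluster 0 mitosis-like (336 and 455) and cluster 8 S phase-like (218 and 267). Clusters 1, 2, 3, 4, 6, 9 and 10 stayed unnamed and are identified by their leading genes where they matter. Of these, cluster 10 had 8 of 10 S phase markers raised and was still left without a name. Cluster 12 was epithelial-like with 10 of 12 markers but held 65 cells of replicate 1 and 4 of replicate 2, and cluster 13 was mesothelial-like with 6 of 7 and held 1 and 42. For these 2 clusters, state and library cannot be told apart. The libraries shared 12 cell barcodes.

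Most of the keratinocyte markers looked up here were nearly absent. Over both libraries Krt14, the keratin of basal keratinocytes, had 11 UMIs, Krt1 11, Krt6a 9, Krt16 6, Trp63 24, involucrin (Ivl) 12 and loricrin (Lor) 15, and no row for Krt5 was analysed here. Krt10, the suprabasal partner of Krt1, went the other way with 1413 UMIs. So did some envelope genes, with 878 and 851 UMIs of Lgals7 and 547 and 795 of Sbsn in replicates 1 and 2. Itgb4, another keratinocyte marker, was among the leading genes of cluster 4. The UMIs of Itgb4 and of Col17a1, a further such marker, are not given here. The keratins of simple epithelia had 935 UMIs of Krt8, 2283 of Krt18 and 2557 of Krt19. Part of the few keratinocyte UMIs lay in clusters 12 and 13, as given with those cells. The genes are therefore called by their own names and families.

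Levels are given as the mean over cells of UMIs per 10000 UMIs of the cell. Each gene had a mean of at least 0.01, and 2 of the 9, Perp and Ly6a, had a mean of at least 0.1. The 9 genes did not peak together. Among the 12 clusters, by the mean of the 2 libraries, Sprr2k was highest in cluster 5, Sfn in cluster 7 and Perp and Ly6a in cluster 4. Ly6c1 was highest in cluster 11, and Sprr2b, Ly6d and Ly6h in cluster 2. Single libraries differed for Sprr2b, Ly6d and Ly6h. In replicate 1 Ly6d was highest in cluster 0, and in replicate 2 Sprr2b was highest in cluster 8 and Ly6h in cluster 3. Taken as a call of at least 2-fold over all other cells in both libraries, on log2(level + 0.1), 4 of 9 genes were raised in 3 of 12 clusters. Of all 12186 genes with a mean of at least 0.01, 12.4% were raised in at least 1 cluster, and nothing is read from the comparison because the genes were selected on such levels.

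**Figure D1:**
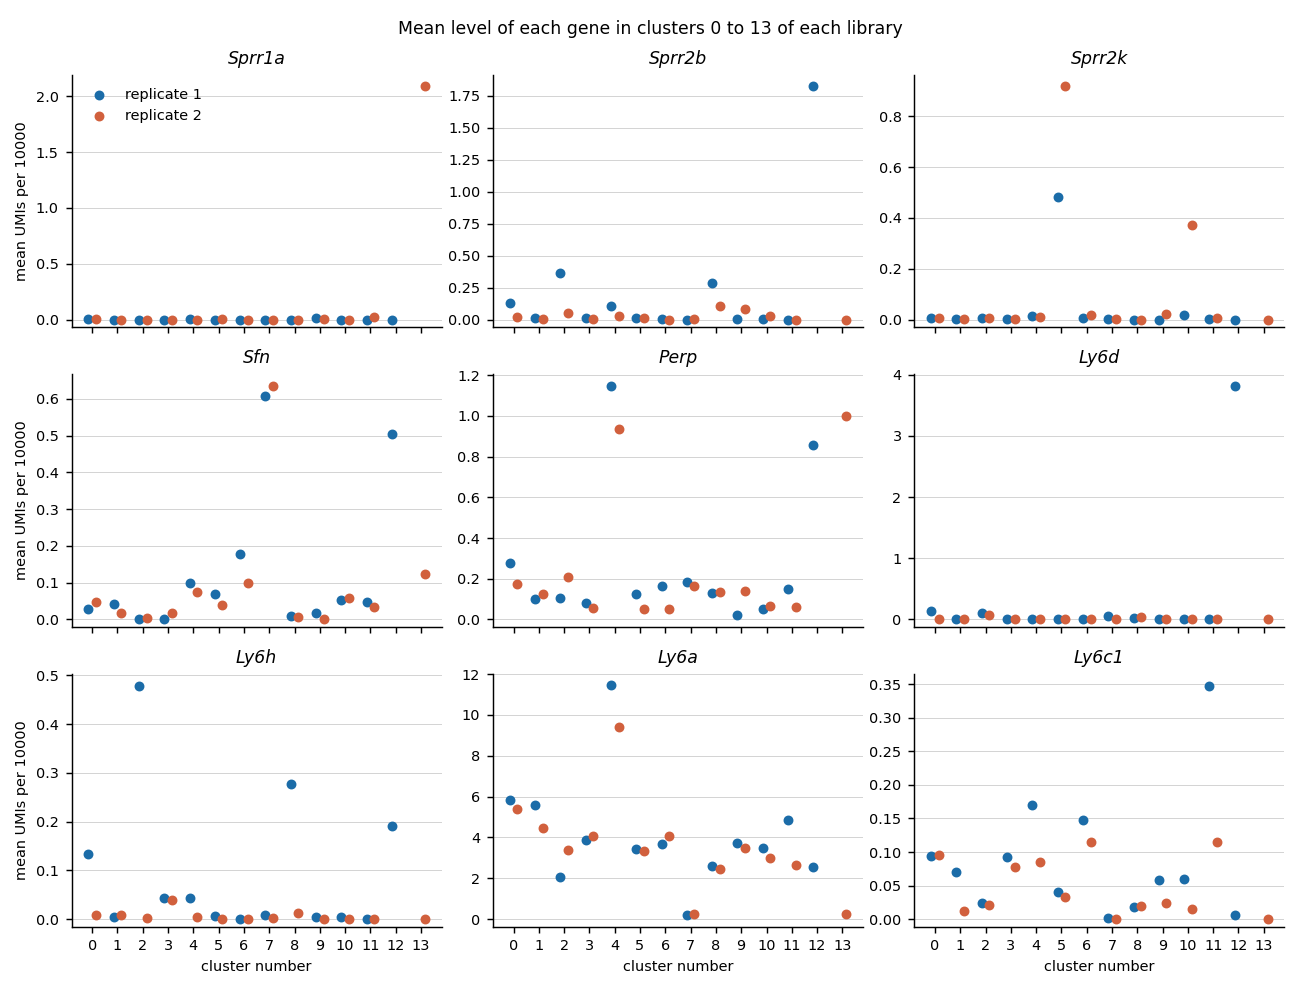
Mean level of each gene (vertical axis, UMIs per 10000, a separate scale in each panel) in clusters 0 to 13 (horizontal axis). Each point is 1 library with at least 30 cells in the cluster. The highest points lie in cluster 13 for Sprr1a (2.09), cluster 12 for Sprr2b (1.82) and Ly6d (3.82), cluster 5 for Sprr2k, cluster 7 for Sfn and cluster 4 for Perp and Ly6a.

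Sprr1a, the small proline-rich protein most often induced in stressed epithelium and in injured nerve and heart, was nearly absent. It had 7 UMIs in 3 cells of replicate 1 and 113 UMIs in 19 cells of replicate 2. Of the latter, 96 lay in 5 of the 42 mesothelial-like cells, and 1 cell alone had 38. In replicate 2 these 5 cells differed from the other 37 of their cluster in genes of epithelial cells, with Epcam, an epithelial adhesion molecule, at 1.46 against 0 and Krt19 at 7.35 against 0.562. Their median depth of 11178 UMIs was close to the 11354 of the others. Outside cluster 13 Sprr1a was at most 0.025, in cluster 11 of replicate 2, and it was at 0 in cluster 11 of replicate 1. Its order over the 12 clusters could not be read, since the values of the highest 4 overlapped.

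Sprr2b had 650 UMIs in 148 cells of replicate 1 and 166 UMIs in 67 cells of replicate 2. In the epithelial-like cluster of replicate 1 it reached 1.82 and was found in 40 of 65 cells, which held 37.5% of its UMIs in that library. The 4 cells of this cluster in replicate 2 had 0 UMIs of it. Elsewhere it was highest in cluster 2, led by Tac2 and Dmrtc2, at 0.364 in replicate 1 and 0.0494 in replicate 2, and in the S phase-like cluster 8 at 0.285 and 0.108. The values of clusters 2 and 8 overlapped, and so did those of clusters 0 and 4, which followed. In cluster 9 of replicate 2, 22 UMIs came from 3 cells, 18 of them from 1.

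Most UMIs of Sprr2k lay in 1 cluster in both libraries, although most cells with a UMI of it lay elsewhere. It had 428 UMIs in 43 cells of replicate 1 and 614 in 65 cells of replicate 2. The smooth muscle or myofibroblast-like cluster 5, led by Mylk, the myosin light chain kinase of smooth muscle, held 398 of them in 17 cells (93.0%) and 454 in 19 cells (73.9%). Its level there was 0.484 and 0.917, or 2.76 ± 0.42 (SD, n = 2) above all other cells on the log2 scale, and did not overlap with any other cluster. The only other cluster with more than a trace was cluster 10, led by Tcf19, Tk1 and other genes of proliferating cells. It held 118 Sprr2k UMIs in 10 of 140 cells of replicate 2 and 9 in 6 of 184 cells of replicate 1. In replicates 1 and 2, 3.26% and 7.14% of its cells had a UMI, against 4.78% and 7.39% in cluster 5.

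Most of this Sprr2k came from a handful of cells. A single cell of cluster 5 had 161 UMIs in replicate 1 and another had 255 in replicate 2, while 33 of the 43 and 41 of the 65 positive cells had 1 UMI each. Without the 5 highest cells of the cluster in each library, its difference from the rest was 0.50 in replicate 1 and 1.33 in replicate 2, so that the 2-fold call was lost in replicate 1. At 3000 UMIs per cell, 2.53% of cluster 5 cells of replicate 1 and 5.45% of replicate 2 held Sprr2k. Of the 8 genes most raised in the Sprr2k-positive cells of cluster 5 over its other cells, Lrrc15, a surface protein of activated myofibroblasts, appeared in both libraries. Lrrc15 was at 1.11 against 0.163 in replicate 1 and at 0.595 against 0.102 in replicate 2. Perp was among those 8 genes in replicate 1 (0.908 against 0.0838) and not in replicate 2. The cells with Sprr2k were as deep or deeper, with median UMIs of 15429 against 14320 and 15861 against 12121. These comparisons and the removal of the 5 cells were chosen after the values were seen.

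**Figure D2:**
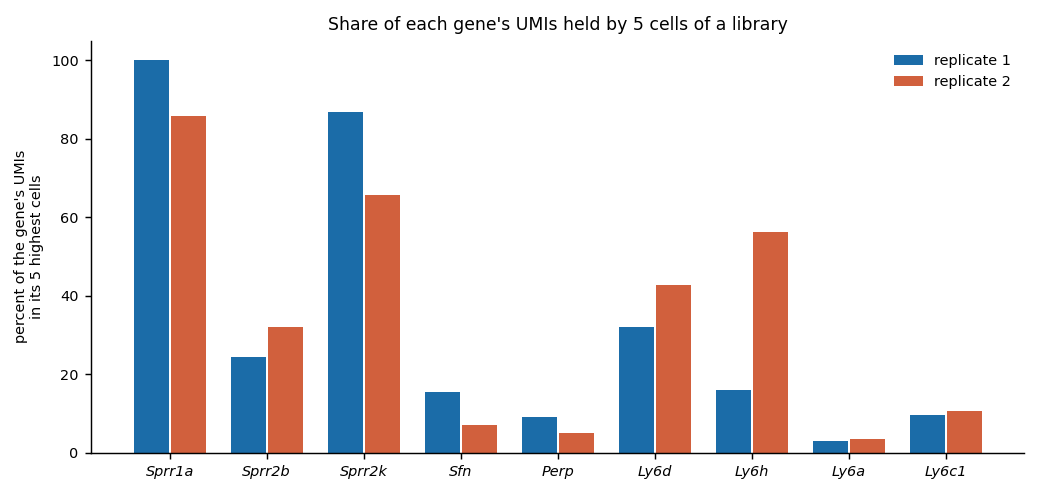
Percent of each gene's UMIs (vertical axis) held by its 5 highest cells in replicate 1 and replicate 2 (bars). The 5 highest cells held 86.9% and 65.6% of Sprr2k but 3.09% and 3.40% of Ly6a, and Sprr1a replicate 1 has 3 positive cells in all.

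Sfn encodes 14-3-3 sigma, which holds cells in G2 and is made by many epithelia. Of the 9 genes it was the one highest in the pluripotent-like cells, at 0.607 and 0.636 in the 2 libraries, while all other cells were at 0.0589 and 0.0375. That is 2.29 ± 0.19 (SD, n = 2) on the log2 scale, and the 2 library values of cluster 7 lay above every value of the other 11 clusters. The pluripotent-like cells held 263 of 611 Sfn UMIs in replicate 1 (43.0%) and 672 of 915 in replicate 2 (73.4%). Since these cells were deep, with medians of 28691 and 26097 UMIs, detection was also compared at 3000 UMIs per cell: 14.3% (exact 95% interval 9.07 to 21.0) and 15.1% (11.7 to 19.0) of them held Sfn, against 1.28% and 1.05% of other cells. Intervals throughout cover counting error only. Cluster 6, led by Smoc2 and Pcp4, followed at 0.178 and 0.10, then cluster 4 at 0.0988 and 0.0751. The epithelial-like cells of replicate 1 reached 0.506, near the pluripotent-like level. Sfn thus did not follow the description under which it was chosen, that of a gene leading non-pluripotent cells, except in cluster 12. Leaving out the 5 highest cells of cluster 7 left its difference at 1.89 and 2.34.

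Perp, which joins desmosomes and takes part in p53-dependent cell death, was highest in cluster 4, the cells led by Krt19, Gsto1, Cd24a and Msln. It stood at 1.15 and 0.935 there, compared with 0.146 and 0.136 in the other cells, a difference of 2.24 ± 0.15 (SD, n = 2) on the log2 scale. Cluster 4 held 47.7% and 39.8% of Perp UMIs and did not overlap with any other of the 12 clusters. Perp was also found in both clusters that came mainly from 1 library, at 0.857 in the epithelial-like cells of replicate 1 and 0.998 in the mesothelial-like cells of replicate 2. Unlike the Sprr genes it was found at a low level in every one of the 12 clusters, from 0.0210 in cluster 9 of replicate 1 upwards, and it was at least 2-fold lower than in other cells in cluster 3, led by Nxpe2 and Aldoc (0.0800 and 0.0584). The pluripotent-like cells had 0.185 and 0.165, ranking behind clusters 4 and 0, of which cluster 0 (0.275 and 0.173) overlapped with theirs.

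Ly6a was by far the most abundant of the 9 genes, with 26193 and 24489 UMIs, and was found in 82.0% and 76.3% of cells. It too was highest in cluster 4, at 11.4 and 9.43 against 3.94 and 3.39 in the other cells (1.48 ± 0.05 on the log2 scale, SD, n = 2), followed by clusters 0 and 1 at 4.47 to 5.82. The pluripotent-like cells were at 0.224 and 0.276 and all others at 4.93 and 4.28, a difference of -3.75 ± 0.29 (SD, n = 2). At 3000 UMIs per cell, Ly6a was found in 4.08% and 6.14% of the pluripotent-like cells and in 55.5% and 52.5% of the others. The mesothelial-like cells of replicate 2, at 4.76% (2 of 42 cells), were as low, and of the 13 macrophage-like cells 1 had a single UMI. No level of free RNA was measured, and its part in shares this low was not tested, so they were not read as expression.

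Ly6c1, the neighbour of Ly6a, was sparse, with 400 UMIs in 253 cells and 285 in 199. It was highest in the fibroblast-like cluster 11, led by Spp1 and Mmp3, at 0.348 and 0.115, followed by cluster 6 at 0.147 and 0.115 and cluster 4 at 0.170 and 0.0851. These 3 clusters overlapped. In the pluripotent-like cells 1 UMI was counted in each library. Within cluster 11 the 46 positive cells of replicate 1 differed most from the other 150 in Mcpt8 (1.17 against 0.0126). They were also higher in Thbs4, a matrix thrombospondin (1.01 against 0.0772), and Lum, the matrix proteoglycan lumican (2.04 against 0.555). The 7 positive cells of replicate 2 were led by other genes, among them the matrix gene Omd at 1.02 against 0.0215, so the 2 libraries gave no shared gene among the leading 8 of each.

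Ly6d was mostly a gene of the epithelial-like cells of replicate 1. These 65 cells were at 3.82, with 526 of the 710 Ly6d UMIs of the library (74.1%) in 40 of them. The 4 such cells of replicate 2 had 5 UMIs in 2 cells. Among the 12 other clusters it was at most 0.134, in cluster 0 of replicate 1, and clusters 2, 0, 8 and 7 overlapped in their values. In cluster 7 of replicate 1, 16 of its 19 UMIs came from 1 cell.

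Ly6h, which modulates nicotinic receptors in brain, was found mainly in replicate 1. It had 358 UMIs in 120 cells there and 57 in 26 cells of replicate 2. Cluster 2 was at 0.479 in replicate 1, with 115 UMIs in 28 of 193 cells, and at 0.00236 in replicate 2, with 2 UMIs in 562 cells. Cluster 8 differed in the same way, at 0.278 and 0.0121, and so did cluster 0, at 0.133 and 0.00901. Of the 12 clusters, the highest in replicate 2 was cluster 3, at 0.0398, with 18 UMIs in 6 cells. The Ly6h-positive cells of cluster 2 in replicate 1 were higher than the rest of that cluster in Dlk1 (1.76 against 0.0775), the imprinted non-coding RNA H19 (5.25 against 1.03) and Igfbpl1 (6.54 against 0.903). They were slightly shallower, with a median of 13216 UMIs against 15432. In replicate 2, 13 of the 57 UMIs came from 1 cell of cluster 12.

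The comparison with the pluripotent-like cells was made on the scale of log2(level + 0.1), on which a gene with a level under 0.1 in all other cells cannot be called 2-fold lower. On that scale 1 of the 9 genes, Ly6a, was lower and 1, Sfn, was higher. Among all 12186 genes with a mean of at least 0.01, 8.76% were called lower and 5.62% higher, and among the 7131 with a mean of at least 0.1 the shares were 15% and 6.38%. The genes were selected on this contrast, so nothing is read from these counts. For the sparse genes the ratio of summed UMIs per 10000 shows the size of the gap, with exact 95% intervals that treat the UMIs of 1 cell as independent and serve as a description only. Ly6c1 was 34.0-fold (6.07 to 1347) higher in the other cells of replicate 1 and 54.2-fold (9.64 to 2147) in replicate 2, each against 1 UMI. Sprr2k was 18.2-fold (5.00 to 150.5) and 38.8-fold (13.2 to 189) higher, against 2 and 3 UMIs. Sprr2b was 55.4-fold (9.90 to 2189.6) and 7.73-fold (2.96 to 28.7) higher, against 1 and 4 UMIs. Ly6d was 3.1-fold (1.97 to 5.18) and 15.8-fold (2.76 to 633) higher. For Ly6h the ratio was 7.55 (2.92 to 27.9) in replicate 1 and 1.98 (0.798 to 6.36) in replicate 2. For Sprr1a it was 10.6 (2.86 to 88.5) in replicate 2 and no ratio could be given in replicate 1, with 7 UMIs against 0. Perp was 1.75-fold (1.40 to 2.23) and 1.44-fold (1.23 to 1.71) higher in the other cells.

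**Figure D3:**
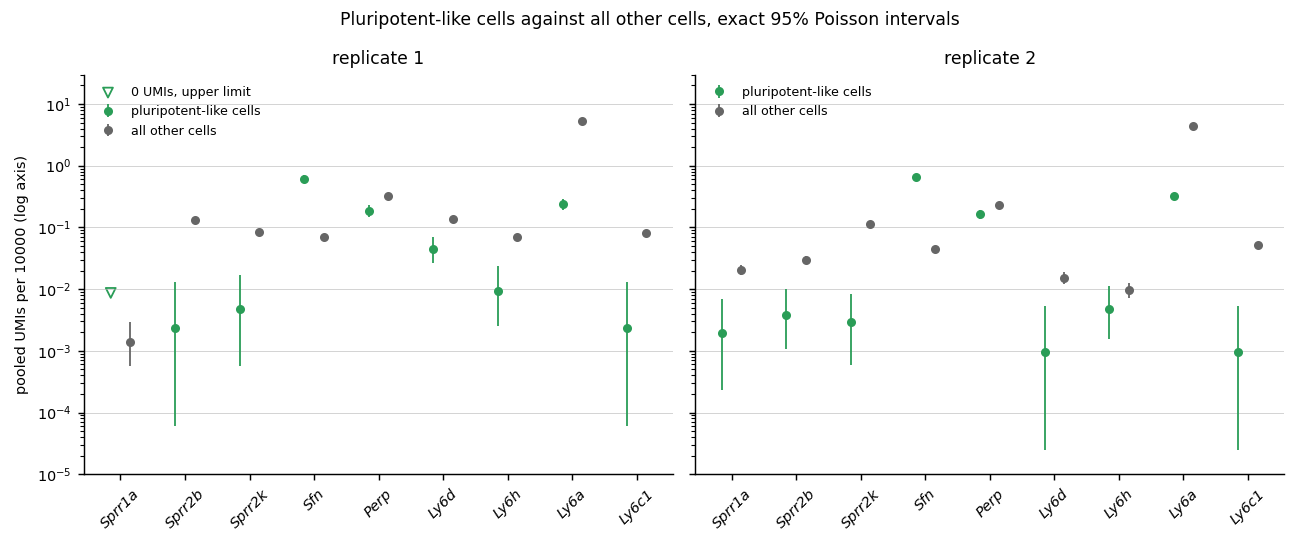
Summed UMIs per 10000 (vertical axis, logarithmic) of each gene in pluripotent-like cells and in all other cells, 1 panel per library. Bars are exact 95% Poisson intervals and the open triangle is the upper limit of a count of 0. Only Sfn stood higher in the pluripotent-like cells in both libraries, and Ly6a had the widest gap among the abundant genes (22.0-fold and 13.9-fold).

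The other genes of these families were counted by the same rule, among those with a mean of at least 0.1. Of 61 further envelope genes listed, 20 were in the table and 5 passed this minimum, and 3 of the 5 were at least 2-fold lower in the pluripotent-like cells: Anxa1, S100a10 and S100a11, calcium-dependent membrane proteins and their partners that many cell types make. Anxa1 was at 0.0791 and 0.0828 there against 0.877 and 0.794 elsewhere. S100a11 was at 1.84 and 1.69 against 9.31 and 7.40. The 2 others, Sbsn and Lgals7, differed by -0.83 and -0.85 on the log2 scale. The median of the 5 was -1.89, against -0.16 over all genes tested. Of 37 further Ly6 family genes 24 were in the table and 2 passed, and of these Ly6e was lower (0.555 and 0.681 against 2.1 and 2.25) while Cd59a, the complement inhibitor, differed by -0.20.

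Of 6 other 14-3-3 genes all passed the minimum and none was called in either direction, while Sfn, with a mean under 0.1, was not among the genes so counted. Ywhaq came nearest, at 4.22 and 5.69 against 2.30 and 2.19, which is 0.85 in replicate 1 and 1.34 in replicate 2. Of 6 desmosome and tetraspan genes that passed, 4 were lower, and these were Emp1, Emp2, Emp3 and Pmp22, the tetraspan relatives of Perp rather than desmosomal plaque or cadherin genes. Emp1 was at 0.208 and 0.189 against 3.46 and 3.28, a difference of -3.54 ± 0.01, whereas the difference of Perp itself was -0.25 ± 0.07 (SD, n = 2). Of 14 genes of the p53 and p63 list Phlda3 and Btg2 were lower and Trp53 itself was higher, at 2.24 and 2.05 against 0.927 and 0.853, shares that lie near the 15% lower and 6.38% higher among all genes, so that the count says nothing particular of this list. Neither of 2 keratins that passed, Krt18 and Krt19, was called.

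In cluster 4, where Perp and Ly6a were raised, both keratins were raised too, Krt18 at 0.454 and 0.545 against 0.112 and 0.166 and Krt19 at 0.662 and 1.03 against 0.0707 and 0.121. So was Pkp2, plakophilin 2 of the desmosomal plaque, at 0.336 and 0.330 against 0.114 and 0.101. None of the 5 envelope, 2 Ly6, 6 other 14-3-3 or 14 p53 and p63 genes reached 2-fold there. Over all 7131 genes, 0.407% were at least 2-fold higher in cluster 4 and 2.36% lower. In cluster 5, where Sprr2k was raised, Emp1 (7.44 and 8.59 against 2.77 and 2.58) and Pmp22 (2.16 and 2.37 against 0.844 and 0.634) were higher and Krt18 (0.0170 and 0.0189 against 0.163 and 0.209) and Cd59a (0.196 and 0.197 against 0.783 and 0.549) lower, with 3.48% of all genes higher and 3.1% lower. None of the 5 further envelope genes tested reached 2-fold in cluster 5. The keratin and desmosome lists, with Emp1 and Pmp22 among them, were not left out of the clustering. Krt19 led cluster 4 and was among the markers used to name clusters. The keratin and desmosome levels in clusters 4 and 5 are therefore a description only.

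In the 65 epithelial-like cells of replicate 1, which have no counterpart of size in replicate 2, several of the 9 genes stood side by side. Ly6d was at 3.82 against 0.0300 in all other cells of the library, Sprr2b at 1.82 against 0.0750, Perp at 0.857 against 0.236 and Sfn at 0.506 against 0.0758. Sprr1a and Sprr2k had 0 UMIs, which allows a share of cells with a UMI at this depth of up to 4.62% for each and does not limit the share of cells that express them. The keratins there were Krt8 (1.98 against 0.0309) and Krt18 (1.51 against 0.118), with Dsp, desmoplakin, at 0.460 against 0.0140 and the envelope gene Lgals7, galectin 7, at 1.29 against 0.121. Krt8 and Krt18 were also among the markers used to name this cluster. Of the Ly6 family Cd59a (3.37 against 0.659) and Lypd6b (0.177 against 0.000208) were high and Ly6a (2.57 against 4.75) was not. All 9 Krt6a UMIs (in 4 cells) and all 5 Krt14 UMIs (in 3 cells) of the library lay in this cluster. The mesothelial-like cells of replicate 2 shared Perp and Krt18 (4.63 against 0.149) with them but had Krt7 (3.92 against 0.0230) and Sbsn, suprabasin (1.30 against 0.124), and 0 UMIs of Sprr2b, Ly6d and Ly6h. They also held 10 of the 12 Ivl UMIs (in 2 cells), 11 of the 15 Lor UMIs (in 1 cell) and 3 of the 6 Krt14 UMIs of the library.

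Detection of 2 genes in the same cell was compared for all 36 pairs at 3000 UMIs per cell, by the odds ratio of finding one gene in cells with and without the other. An odds ratio of at least 2 in both libraries was found for 2 pairs. Ly6a and Ly6c1 met in 48 cells of replicate 1 and 36 of replicate 2, with odds ratios of 3.94 and 3.05, whereas Sprr1a and Perp met in 1 cell of each library. At full depth 242 of the 253 Ly6c1-positive cells of replicate 1 and 191 of the 199 of replicate 2 also held Ly6a. Within clusters the odds ratio of this pair was 15.8 in cluster 11 of replicate 1 and 2.58 in cluster 4 of replicate 1, and was 0.823 in cluster 10 of replicate 1. In replicate 2 it was 2.50 in cluster 2 and 1.79 in cluster 0 but 0.472 in cluster 1 and 0.951 in cluster 5, and in clusters 3, 4 and 6 to 11 every Ly6c1-positive cell also held Ly6a. Part of the 3' end of Ly6c1 occurs in Ly6a transcripts, as given above, and its part in this pairing was not tested. In 13 of 36 pairs no cell of either library held both genes at this depth.

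Sprr2b and Ly6d met in 10 cells of replicate 1, with an odds ratio of 24.0, and in 0 of replicate 2. At full depth they met in 37 and 2 cells, 28 of the 37 in the epithelial-like cluster, where the odds ratio within the cluster was 2.53. Sfn and Perp met in 6 and 7 cells with odds ratios of 1.81 and 1.45. Within the pluripotent-like cells, at full depth, their odds ratios were 1.71 and 1.63. For Sfn and Ly6a the odds ratios over all cells were 0.692 and 0.297 at 3000 UMIs, and 0.662 and 0.361 at full depth. Within the pluripotent-like cells at full depth they were 2.69 and 1.52, the opposite direction in both libraries. Detection at full depth depends on the depth of a cell. In replicate 1 the Sfn-positive cells of this cluster were deeper, with a median of 29249 UMIs against 27296. The part of depth in either pair of genes was not tested. Leaving Ly6a out, 1.48% of cells of replicate 1 and 0.383% of replicate 2 held at least 2 of the other 8 genes at 3000 UMIs. In the epithelial-like cluster of replicate 1 this share was 27.7%, and at full depth 89.2% of its 65 cells.

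Between the libraries, 3 of the 9 genes were at least 1.5-fold apart, all lower in replicate 2, while 1.16% of all 12186 genes were. The genes were chosen because they led cell groups of these same libraries, so nothing is read from the comparison of these shares. Ly6d was at 0.109 and 0.0177 (-0.83 on the log2 scale), Sprr2b at 0.112 and 0.0289 (-0.71) and Ly6h at 0.0779 and 0.00941 (-0.70). With each of the 12 clusters given equal weight, which leaves out the epithelial-like cells, Ly6d differed by -0.20 and Sprr2b by -0.47, and Ly6h by -0.79 remained past the limit. The gap of Ly6h was -2.50 in cluster 2, -1.75 in cluster 8 and -1.10 in cluster 0, but -0.04 in cluster 3 and 0.05 in cluster 1. Other clusterings set apart a group of cells with Igfbpl1 and Ly6h among its leading genes, which held 62 and 11 cells of the 2 libraries with more variable genes, 55 and 13 with the members kept in, and 109 and 96 at resolution 2. The part of this group's size in the gap was not tested. With 1 value per library no test was possible, and effects of library, of culture and of any difference in mouse system cannot be told apart. Sfn (0.09), Sprr2k (0.17), Perp (-0.21), Ly6a (-0.27), Sprr1a (0.30) and Ly6c1 (-0.34) were closer.

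**Figure D4:**
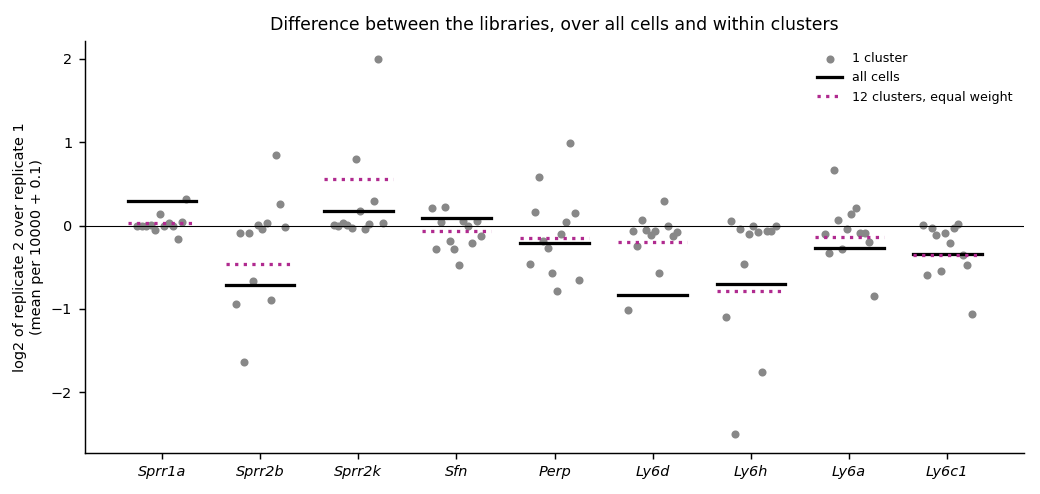
Difference between the libraries on the log2 scale (vertical axis) for each gene, with 1 grey point for each of 12 clusters, a black bar for all cells and a dotted bar for equal cluster weights. Ly6d moves from -0.83 to -0.20 when clusters are weighted equally, and Ly6h stays at -0.79.

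The genes whose level over the 12 clusters was most like that of each member were found by Pearson's r of log2(level + 0.1), averaged over the libraries, as a description over 12 points that share libraries and depth. Ly6a was closest to Commd3, Adipor1 and Fam177a (r of 0.95, 0.95 and 0.94), Sfn was close to Ubxn2a and to Klf2, a factor of naive pluripotency (0.91 and 0.91), and Ly6c1 to Glipr1, Eps8 and Lxn (0.91, 0.86 and 0.83). Perp followed Gss, Pgd and Krt19 (0.88, 0.81 and 0.78). Sprr2k followed Mylk, Ddb1 and Sipa1l1 (0.80, 0.78 and 0.77), and Ly6h Igfbpl1, Rbm4b and Zbtb12 (0.78, 0.73 and 0.72). Tac2, a tachykinin, came first for both Sprr2b (0.78, ahead of Dmrtc2 and Got2 at 0.75 and 0.74) and Ly6d (0.77, ahead of Sec14l1 and Dhrs4 at 0.75 and 0.72), although its r with Sprr2b was 0.98 in replicate 1 and 0.57 in replicate 2. For Sprr1a, at 7 UMIs in replicate 1, the values of 0.72, 0.72 and 0.71 for Srp68, Pex14 and Slc27a3 rest on too few molecules to be read.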

How the data were processed

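Cells were dissociated on day 16 and made into 2 libraries with Chromium 3' V2 chemistry (10x Genomics). Per the submitters' notes the authors counted reads with Cell Ranger 2.1.1 on mm10 and normalized them in Seurat. The authors deposited natural log values, ln(1 + UMIs per 10000 of the cell), in 1 table of 7023 cells, whose cells had 1508 to 5987 genes and at most 8.99% mitochondrial RNA. UMIs were recovered from these values (100% were whole within 0.01) and totalled 54145377 and 64654306.

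The 2 libraries were clustered jointly on 2000 variable genes, 30 principal components and 15 neighbours (Leiden, resolution 1, leidenalg 0.10.2). Left out were the members, the other listed envelope and Ly6 genes and 603 genes of the X and Y chromosomes. Clusters were named when at least 3 markers and 50% of a list were 2-fold up. No doublets were removed. A gene was called when 2-fold apart in both libraries on log2(mean + 0.1). For co-detection, each cell was thinned to 3000 UMIs. The fold calls were tried on simulated counts with 4-fold changes in genes with a mean of at least 0.1, with counting error as the only spread. This does not cover members with a lower mean or with most UMIs in a few cells. Members, lists and naming rules were chosen with earlier results of these data known. Named genes are the 9 members, listed genes called in a described comparison (at most 8 per list, or 4 for desmosome, p53 and keratin lists), the 3 genes most alike each member with a mean of at least 0.1, and genes leading a cluster. Genes beyond this rule, such as those within positive cells and those of clusters 12 and 13, were named after their values were seen. Some genes that this rule or these comparisons would name are not reported here.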

Additional observations from a re-analysis of the deposited data

How the results depend on the processing

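Of 12 alternatives for the 1 member called lower in pluripotent-like cells, 10 gave 1, a pseudocount of 0.01 gave 5, and leaving out 1 library gave 1 to 2. The 3 clusters with a raised member were 5 at resolution 2, 5 with a pseudocount of 0.01, 1 with a pseudocount of 1 and 4 to 6 with 1 library. The 2 pairs found together were 6 at 4500 UMIs per cell, 6 without thinning, 4 to 11 with 1 library, 1 without clusters 12 to 14 and 1 when 5 shared cells were required. The 3 members apart between libraries were 5 with a pseudocount of 0.01, 0 with a pseudocount of 1, 1 with equal cluster weights and 1 without clusters 12 to 14. The 10 listed genes lower in pluripotent-like cells were 4 with a pseudocount of 1 and 10 to 12 with 1 library. The 1 listed gene higher was 2 with a pseudocount of 0.01, 0 with 1, 2 with a minimum mean of 0.01 or none, and 1 to 3 with 1 library. A larger pseudocount hides sparse genes by its construction; otherwise the cause was not tested. The removal of clusters 12 to 14, of the 5 highest cells and of pairs with few cells was chosen after seeing the data. No paired analysis was possible because both libraries belong to 1 group, so no groups could be paired, while differences between cell states were taken within each library. Counts of 0 to 3 UMIs limit what 7 of the 9 members can show in single clusters.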
